A study of Mus musculus with 3 samples.

Results

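Sox9, Onecut1, Onecut2, Hes1, Gata6, Foxa2, Pdx1, Hnf4a and Klf5 are transcription factor genes of pancreatic duct cells and of the embryonic foregut. These 9 genes were taken by symbol from the 31053 genes of the count tables, on no measured value of their own, and all 9 were present. They were followed in single cells of 3 mouse pancreatic tumours. The tumours arose in the pancreas of NSG mice, an immunodeficient host strain, from transplanted tdTomato-positive epithelial cells of Msi2-Myc; R26-LSL-tdTomato donors, collected 5 weeks after tamoxifen. Tamoxifen acts on the CreER of the Msi2 line, which switches on MYC (MycT58A in the series title) and the red reporter, so only cells that express Msi2 are targeted. Epithelial cells were sorted from the end-stage tumours by EpCAM and sequenced as 1 droplet-based 3' library per tumour, in which each captured transcript carries a unique molecular identifier (UMI). The series title names several tumour subtypes, but the labels of the 3 tumours do not differ apart from their titles, so they formed 1 group without a control and no test was made between tumours. Nothing in the labels says whether the transplanted cells came from separate donors, so p-values here measure the spread between these 3 tumours.

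The endoderm that lines the foregut gives rise to stomach, duodenum, liver and pancreas, and overlapping sets of factors from the FOXA, GATA, HNF and ONECUT families act there before the organs separate. Pdx1 then marks the pancreatic and duodenal field, Sox9 and the Notch target Hes1 maintain its progenitors, and Sox9, Hes1 and the ONECUT genes stay on in adult ducts while acinar cells turn on Ptf1a and its partners. In pancreatic cancer, Gata6, Hnf4a and Foxa2 are known as genes of the classical subtype and Klf5 as a factor of the ductal, proliferating epithelium.

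Cells were grouped by marker gates that use none of the 9 genes. A gate was passed when its marker genes together gave 3 or more of every 1000 UMIs of a cell, with Ctrb1 and Clps for the acinar gate, Tff1 and Lgals4 for the ductal gate, Krt5 and Krt14 for the squamous gate, and Msln, Tm4sf1 and F3 for the Msln gate. Tumours 1, 2 and 3 held 1431, 253 and 2804 cells with medians of 1621, 1333 and 1605.5 UMIs, from libraries of 11502184, 9737397 and 16521484 UMIs. The acinar gate held 458, 47 and 2026 cells, the ductal gate 389, 91 and 196, and the squamous gate 1, 2 and 49, while 70, 18 and 115 cells passed several gates and 502, 94 and 405 passed none. The marker lists hold the gate genes, whose levels the gates fix, so their sums are given without them. The other 12 acinar markers summed to between 6357 and 10379 CPM (UMIs scaled to a total of 1000000 per sum of cells) in the acinar gate and between 326 and 619 CPM in the ductal gate. The other 8 ductal markers summed to between 6955 and 10987 CPM in the ductal gate and between 1978 and 2507 CPM in the acinar gate. Marker lists of fibroblasts, endothelial, lymphoid, erythroid, endocrine and Schwann cells stayed between 0 and 14.9 CPM in all acinar and ductal sums, the hepatocyte list between 0 and 33.7, the mesothelial list between 7.45 and 27.9, the myeloid list between 10.5 and 93.4 and the tuft cell list between 5.28 and 60.8 CPM.

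The libraries shared barcodes. All 1877 barcodes of library 1 with 1000 or more UMIs had at least 10 UMIs in library 2, where chance gives 18.4, so a barcode was kept only in a library that held at least 60% of all its UMIs. That removed 122, 258 and 28 barcodes (7.86%, 50.5% and 0.989% of those that passed the other filters) in tumours 1, 2 and 3. A further set of barcodes carried 10% or more of their UMIs from Gm42418, AY036118, Gm26917 and Lars2, genes of or overlapping ribosomal RNA loci, and had few mitochondrial UMIs. They made up 29.4%, 19.8% and 57.0% of cells in tumours 1, 2 and 3. The acinar gate held 41.7%, 10% and 90.9% of them and the ductal gate 7.86%, 24% and 0.0626%, so that without them 283, 42 and 574 acinar-gated and 356, 79 and 195 ductal-gated cells were left. RNA of these loci gave 12.2%, 4.83% and 15.3% of acinar sums and 3.70%, 6.09% and 1.49% of ductal sums, so the counts of members called between these gates are also given without these barcodes, a setting chosen after the data were seen. The nuclear RNA Malat1 stood at 2749, 1968 and 3823 CPM in acinar and 3384, 5457 and 8251 CPM in ductal sums of tumours 1, 2 and 3, and its part in the results below was not tested.

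Positions of the genes are those of the GENCODE M21 annotation of mm10. Sox9 lies at chr11:112782224-112787760, Hes1 at chr16:30064384-30067796, Pdx1 at chr5:147269959-147275848, Hnf4a at chr2:163506808-163572910, Klf5 at chr14:99298691-99315036 and Onecut1 at chr9:74861921-74891781, all on the plus strand. Foxa2 lies at chr2:148042877-148046969 on the minus strand. Antisense genes overlap Hnf4a (Hnf4aos) and Pdx1 (Plut), and a lincRNA (Gm20649) overlaps Onecut1 on the same strand. The sources used here do not state that strand was used in counting, so UMIs at these overlaps cannot be assigned with certainty.

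RefSeq promoter windows (GRCm38.p6, 250 bases before to 50 bases after a transcription start) were matched by symbol for 4 of the 9 genes, namely Onecut1, Foxa2, Hnf4a and Pdx1. The windows are shown to set the promoters of genes lower in ductal-gated cells (Onecut1 and Foxa2) beside those of genes higher in them (Hnf4a and Pdx1). Each is written 5′ to 3′ on the strand of its gene, and capitals mark the motifs found on either strand. The Onecut1 window is chr9:74861671-74861970 on the plus strand, the first of 3 Foxa2 windows is chr2:148046920-148047219 on the minus strand, the Hnf4a windows are chr2:163506607-163506906 and chr2:163546905-163547204 on the plus strand, and the Pdx1 window is chr5:147269847-147270146 on the plus strand.
Onecut1: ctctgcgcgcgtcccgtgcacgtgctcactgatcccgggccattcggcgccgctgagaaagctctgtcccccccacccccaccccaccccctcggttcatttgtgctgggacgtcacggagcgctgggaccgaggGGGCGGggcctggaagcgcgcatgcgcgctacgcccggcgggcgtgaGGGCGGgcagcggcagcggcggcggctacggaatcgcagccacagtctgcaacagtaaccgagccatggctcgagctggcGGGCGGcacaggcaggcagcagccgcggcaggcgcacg
Foxa2: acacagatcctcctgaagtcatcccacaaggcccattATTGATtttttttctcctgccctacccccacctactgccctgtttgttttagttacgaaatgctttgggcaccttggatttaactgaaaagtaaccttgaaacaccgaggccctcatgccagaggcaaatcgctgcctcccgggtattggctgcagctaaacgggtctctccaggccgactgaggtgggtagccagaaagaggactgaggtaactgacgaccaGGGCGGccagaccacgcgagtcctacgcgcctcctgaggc
Hnf4a, start site 1: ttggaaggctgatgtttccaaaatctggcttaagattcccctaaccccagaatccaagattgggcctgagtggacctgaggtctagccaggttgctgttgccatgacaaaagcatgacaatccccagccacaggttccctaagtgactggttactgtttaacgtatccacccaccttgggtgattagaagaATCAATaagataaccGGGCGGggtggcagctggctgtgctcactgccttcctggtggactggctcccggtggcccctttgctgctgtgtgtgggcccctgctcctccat
Hnf4a, start site 2: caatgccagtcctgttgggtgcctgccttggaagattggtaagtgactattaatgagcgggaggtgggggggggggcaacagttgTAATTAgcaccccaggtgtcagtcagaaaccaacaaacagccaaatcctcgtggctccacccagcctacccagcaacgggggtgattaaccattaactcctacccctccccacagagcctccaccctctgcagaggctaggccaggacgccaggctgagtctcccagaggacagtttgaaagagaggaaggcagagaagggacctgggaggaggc
Pdx1: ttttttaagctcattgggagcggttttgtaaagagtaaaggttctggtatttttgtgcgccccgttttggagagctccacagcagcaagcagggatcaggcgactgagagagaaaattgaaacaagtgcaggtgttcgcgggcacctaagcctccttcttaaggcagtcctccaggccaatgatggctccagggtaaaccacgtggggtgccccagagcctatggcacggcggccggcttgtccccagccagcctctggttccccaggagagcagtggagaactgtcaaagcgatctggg
The motifs searched were ATTGAT (the core bound by ONECUT factors), TGTTTAC (FOXA), CAAAGTCCA (HNF4), TAATTA (a homeobox core that PDX1 can bind) and GGGCGG (the GC box). With the first transcribed base as position 1, ATTGAT was found at position -213 of the Foxa2 window and, on the reverse strand, at position -59 of the first Hnf4a window. TAATTA was found at position -165 of the second Hnf4a window. GGGCGG was found at positions -115, -68 and 13 of Onecut1, 11 of Foxa2 and -44 of the first Hnf4a window, and no printed match overlapped another. The other Foxa2 windows, not printed, held GGGCGG at positions -160 and -71 (the second) and -239 (the third). Among all 32851 windows of this length, 7.5% held ATTGAT, 5.3% TAATTA, 35.7% GGGCGG, 3.6% TGTTTAC and 0.5% CAAAGTCCA. The Onecut1 window had a GC content of 73%, against 54.3%, 64% and 51.7% for the 3 Foxa2 windows, 54% and 57.3% for the first and second Hnf4a windows, 55.3% for Pdx1 and a median of 52.7% over all windows. These are letter matches in short windows and carry no measurement of binding.

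Ductal-gated and acinar-gated cells of the same tumours differed in most of the 9 genes, and not in 1 direction. UMIs were summed per tumour and gate and fitted by edgeR's quasi-likelihood test in a model that holds the tumour as a block, and a gene was called at a Benjamini-Hochberg adjusted p below 0.05 over all genes tested. Of the 8 members with enough UMIs to be tested, 4 were higher in ductal-gated cells (Onecut2, Klf5, Hnf4a and Pdx1), 2 were lower (Onecut1 and Foxa2) and 2 were not called (Sox9 and Hes1), while Gata6 was too rare to test. Over all 7648 genes tested, 17.4% were called higher and 15.6% lower, so that 33% were called in either direction. The median log2 difference was 0.69 over the 8 tested members and -0.00 over all genes. In 4 members every ductal sum lay above every acinar sum (20.4% of all genes) and in 1 member every ductal sum lay below (13.8%). Without the barcodes rich in ribosomal locus RNA the same 4 members were higher and the same 2 lower, against 17.8% and 18% of all genes. The calls rested on single tumours to different degrees. Without tumour 1, 5 members could be tested and 2 were called (Onecut2 and Klf5), without tumour 3 the 4 higher members were called and no lower one, and without tumour 2 the 4 higher members and Foxa2 were called. With barcodes kept whatever their share in a library, the same 4 were higher and Foxa2 was lower, with Onecut1 untested. The number called over all genes also changed when a tumour was left out, as the closing section gives. Shares over all genes were not set beside the member counts of these settings, so a lost call is not read as particular to the members.

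**Figure D1:**
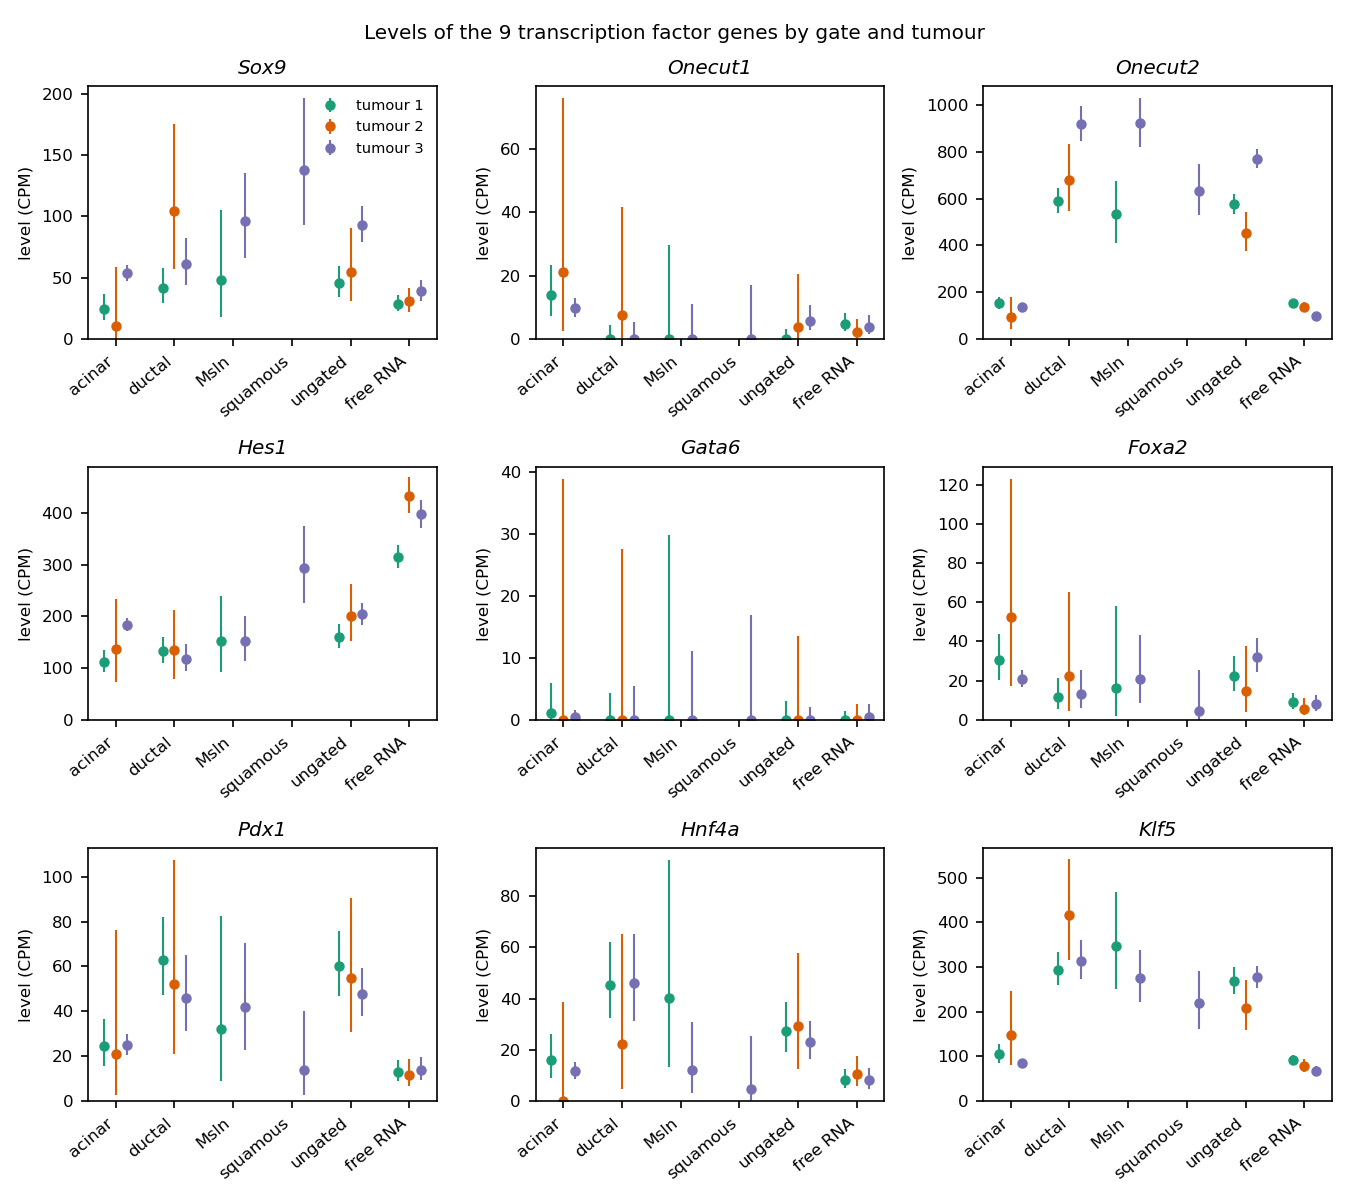
Level of each of the 9 genes (CPM, linear axis from 0) in acinar-, ductal-, Msln- and squamous-gated cells, in cells of no gate and in free RNA, by tumour, with bars for exact 95% Poisson intervals; Msln and squamous sums are drawn only where they hold 20 or more cells, and the Msln gate is drawn at 1 per 1000 UMIs. Onecut2 and Klf5 are higher in ductal-gated cells of every tumour, and Hes1 is highest in free RNA.

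Onecut2 (chr18:64340020-64400987, plus strand), a cut-homeodomain factor of developing liver, pancreas and duct, had the largest difference among the members higher in ductal-gated cells. It stood at 591, 678 and 919 CPM in ductal-gated cells of tumours 1, 2 and 3 (729 ± 169.8, SD, n = 3) and at 154, 94.7 and 138 CPM in acinar-gated cells (129 ± 30.8). All 3 ductal sums lay above all 3 acinar sums, with a log2 difference of 2.31 ± 0.16 (SE, edgeR's quasi-likelihood test, adjusted p = 6.00e-16). Free RNA, read from barcodes with 10 to 100 UMIs, held Onecut2 at 152, 138 and 98.6 CPM, so the acinar-gated cells were near the level of free RNA. The gates also differed in the share of cells with an Onecut2 UMI. After each cell was thinned to 1000 UMIs, 38.8%, 49.5% and 44.9% of ductal-gated cells had a UMI, against 9.17%, 8.51% and 11.5% of acinar-gated cells, and before thinning 56.0%, 56.0% and 69.4% against 15.1%, 8.51% and 18.0%. Median depths were 1662, 1270 and 1881 UMIs in the ductal gate and 1632.5, 1302 and 1554 in the acinar gate. Leaving out tumours in turn and all other settings left Onecut2 called, with log2 differences from 2.13 to 2.63.

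Klf5, a Krüppel-like zinc finger factor of proliferating gut and duct epithelium, followed the same order. Its levels were 294, 417 and 314 CPM in ductal-gated cells (342 ± 66.1, SD, n = 3) and 106, 147 and 85.3 CPM in acinar-gated cells (113 ± 31.7), so the groups did not overlap. The log2 difference was 1.58 ± 0.15 (SE, adjusted p = 1.52e-11). Klf5 was at 91.2, 77.8 and 66.8 CPM in free RNA, below each acinar-gated sum of the same tumour. Thinned to 1000 UMIs, 22.1%, 30.8% and 23.0% of ductal-gated cells had a Klf5 UMI, against 9.39%, 12.8% and 6.76% of acinar-gated cells.

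Hnf4a and Pdx1 were measured at much lower depth. Hnf4a, a nuclear receptor of liver, gut and pancreatic epithelium, had 39, 3 and 31 UMIs in ductal-gated cells (45.4, 22.4 and 45.9 CPM) and 15, 0 and 54 UMIs in acinar-gated cells (15.8, 0 and 11.6 CPM). Every ductal sum lay above every acinar sum, although the values of tumour 2 rest on 3 UMIs against none. The log2 difference was 1.68 ± 0.31 (SE, adjusted p = 2.35e-05). Free RNA held Hnf4a at 8.26, 10.7 and 8.05 CPM, below the acinar-gated level in tumours 1 and 3 and above it in tumour 2, where acinar-gated cells gave 0 UMIs. Pdx1, the homeodomain factor that specifies pancreas and duodenum, stood at 62.8, 52.2 and 45.9 CPM in ductal-gated cells (53.6 ± 8.53, SD, n = 3) and at 24.3, 21.1 and 24.97 CPM in acinar-gated cells (23.4 ± 2.10). Its groups did not overlap either, at a log2 difference of 0.97 ± 0.26 (SE, adjusted p = 0.00289). DESeq2 did not call Pdx1 (adjusted p = 0.107), nor did edgeR's test without tumour 1 (adjusted p = 0.154). Free RNA had 12.98, 11.4 and 13.7 CPM of Pdx1, below both gates in every tumour.

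Onecut1, the founding ONECUT factor (HNF6) of biliary and pancreatic duct development, was lower in ductal-gated cells, opposite to Onecut2. It gave 13, 2 and 45 UMIs in acinar-gated cells (13.7, 21.1 and 9.69 CPM) and 0, 1 and 0 UMIs in ductal-gated cells (0, 7.45 and 0 CPM). All ductal sums lay below all acinar sums. With UMIs pooled over the 3 tumours, which ignores the pairing, the ductal level was 0.0568 times the acinar level (95% counting interval 0.00141 to 0.329). Most of the pooled acinar UMIs came from tumour 3. Within tumours 1, 2 and 3 the intervals of the ratio were 0 to 0.361, 0.006 to 6.80 and 0 to 0.588. The fitted log2 difference was -4.27 ± 0.96 (SE, edgeR's quasi-likelihood test, adjusted p = 0.000456), a size that depends on the prior count because 2 of the ductal sums are 0. Free RNA held Onecut1 at 4.72, 2.14 and 3.79 CPM, below the acinar-gated sum of each tumour. Thinned to 1000 UMIs, 1.53%, 2.13% and 0.691% of acinar-gated cells had an Onecut1 UMI. In the same thinned cells 0 of 389, 0 of 91 and 0 of 196 ductal-gated cells had one, which over all 676 cells allows a share of up to 0.444%. With so few UMIs Onecut1 passed the filter on low counts under only 8 of 16 alternative settings, and it was called in all 8.

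Foxa2, a forkhead pioneer factor of endoderm, was also lower in ductal-gated cells. It stood at 30.6, 52.6 and 20.7 CPM in acinar-gated cells (34.6 ± 16.4, SD, n = 3) and at 11.6, 22.4 and 13.3 CPM in ductal-gated cells (15.8 ± 5.77). Within each tumour the ductal sum was the lower, but the groups overlapped because tumour 2 was high in both. The log2 difference was -1.13 ± 0.36 (SE, edgeR's quasi-likelihood test, adjusted p = 0.0131), from 29, 5 and 96 acinar and 10, 3 and 9 ductal UMIs. Foxa2 was not called by DESeq2 (adjusted p = 0.202), without tumour 3 (adjusted p = 0.0627) or without the tumour block (adjusted p = 0.055). Free RNA had 9.05, 5.71 and 8.05 CPM of Foxa2, below both gates in every tumour.

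**Figure D2:**
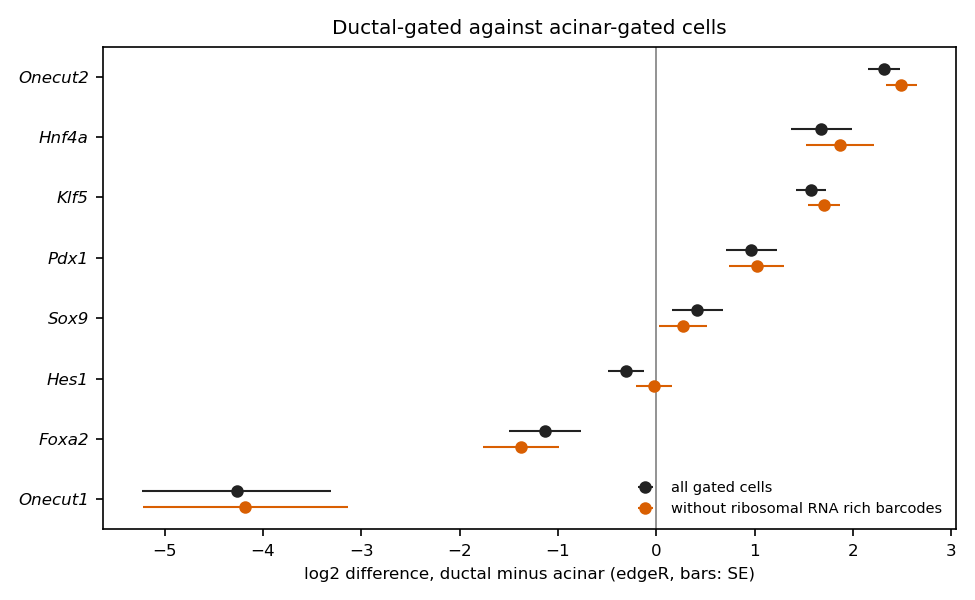
Log2 difference between ductal-gated and acinar-gated cells (x axis, ductal minus acinar, bars SE from edgeR's quasi-likelihood fit) for the 8 tested genes, with all gated cells in black and without the barcodes rich in ribosomal locus RNA in orange. Onecut2, Hnf4a, Klf5 and Pdx1 lie to the right of 0 and Foxa2 and Onecut1 to the left in both settings.

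Sox9, the SRY-box factor that maintains ducts and pancreatic progenitors, was not called between the gates. Its levels were 41.9, 104 and 60.8 CPM in ductal-gated cells (69.0 ± 32.1, SD, n = 3) and 24.3, 10.5 and 53.4 CPM in acinar-gated cells (29.4 ± 21.9). The ductal sum was the higher in each of the 3 tumours, but the acinar sum of tumour 3 lay above the ductal sum of tumour 1. Without the barcodes rich in ribosomal locus RNA the order in tumour 3 turned, with 61.1 CPM in ductal-gated and 71.6 CPM in acinar-gated cells. The log2 difference was 0.42 ± 0.26 (SE, adjusted p = 0.230). Most of the acinar UMIs came from 1 tumour, with 23, 1 and 248 UMIs in tumours 1, 2 and 3. With every cell thinned to 1000 UMIs, which gives cells of high RNA content less weight, the log2 difference was 1.02 and Sox9 was called (adjusted p = 0.0362). Free RNA held Sox9 at 28.7, 30.7 and 38.9 CPM, above the acinar-gated cells of tumours 1 and 2 and below those of tumour 3.

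Hes1, the bHLH repressor induced by Notch signalling, was at about equal levels in the gates, with 134, 134 and 119 CPM in ductal-gated cells (129 ± 8.91, SD, n = 3) and 112, 137 and 183 CPM in acinar-gated cells (144 ± 36.2). The groups overlapped, and only tumour 3 stood clearly apart, with its acinar sum the highest of the 6. The log2 difference was -0.31 ± 0.18 (SE, adjusted p = 0.205), changed to 0.18 without tumour 3 and was -0.03 without the barcodes rich in ribosomal locus RNA. In cells of at least 1500 UMIs Hes1 was called lower, at -0.48 (adjusted p = 0.0303). Free RNA held Hes1 at 315, 433 and 398 CPM, above every acinar, ductal and ungated sum of the same tumour. Free RNA also held RNA of other cells, with the endothelial marker list at 745, 1005 and 963 CPM. How much of the Hes1 in the acinar, ductal and ungated sums came from free RNA was not tested. With the gate genes included, the acinar marker list stood at 5723, 4703 and 7820 CPM in free RNA. The ductal list stood there at 4000, 3250 and 3276 CPM. How far free RNA helped barcodes to pass a gate was not tested.

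Gata6 (chr18:11052064-11085635, plus strand, overlapped by 1010001N08Rik on the other strand), a zinc finger factor of foregut endoderm and of the classical pancreatic cancer subtype, was nearly undetected. It gave 3 UMIs in all 4488 cells, namely 1, 0 and 2 in acinar-gated cells of tumours 1, 2 and 3. In ductal-gated cells 0 of 1668636 UMIs were from Gata6, which allows a level of up to 1.80 CPM, and 0 of 676 cells had one. Free RNA of the 3 libraries together held 1 UMI of it. A count this low does not show absence of the transcript. With UMIs pooled over the 3 tumours, the ratio of the ductal to the acinar level was 0, with a 95% counting interval from 0 to 8.25. No direction is read from it.

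The other genes of these families were read from a list of 24 endoderm and epithelial transcription factors outside the 9. Of the 10 that could be tested, 7 were higher in ductal-gated cells, 0 were lower and 3 were not called, with a median log2 difference of 1.14. Over all genes 17.4% were called higher and 15.6% lower. Gata4, a GATA factor of foregut and pancreas, was the 1 gene of the list with a negative sign at an unadjusted p below 0.05 (log2 -0.57, edgeR's adjusted p = 0.0945), and it was called lower without the barcodes rich in ribosomal locus RNA. The 7 were Foxa1, Elf3, Klf4, Onecut3, Ehf, Hhex and Sox4. Sox4 was not called without those barcodes, leaving 6 higher and 1 lower, against 17.8% and 18% of all genes. Elf3, an ETS factor of gut and gland epithelium, stood at 245, 335 and 325 CPM in ductal-gated against 70.8, 42.1 and 109 CPM in acinar-gated cells (log2 1.62 ± 0.17, SE). Klf4, a Krüppel-like factor of differentiated epithelium, stood at 158, 89.5 and 182 against 57.0, 21.1 and 76.4 CPM (log2 1.23 ± 0.18). DESeq2 called 5 of the 10 higher and 0 lower, and 1035 of all genes in either direction.

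Within the ONECUT and FOXA families the paralogs differed in opposite directions. Onecut3, another cut-homeodomain gene, stood at 23.3, 37.3 and 35.6 CPM in ductal-gated and 4.22, 10.5 and 3.88 CPM in acinar-gated cells (log2 2.76 ± 0.44, SE, edgeR's adjusted p = 1.77e-06), as Onecut2 did and unlike Onecut1. Foxa1, a pioneer factor closely related to Foxa2, stood at 114, 127 and 116 CPM in ductal-gated and 19.0, 10.5 and 8.18 CPM in acinar-gated cells (log2 3.21 ± 0.26, adjusted p = 2.99e-14), opposite to Foxa2. Foxa3, the other family member, had 9.31, 7.45 and 17.8 against 8.45, 0 and 12.1 CPM and was too rare to test. The opposite signs within each family held in every tumour, with Foxa1 higher and Foxa2 lower in 3 of 3. Onecut2 and Onecut3 were higher and Onecut1 lower in 3 of 3. Some of these signs rest on few UMIs. In tumour 2 Onecut1 gave 1 ductal against 2 acinar UMIs, and Foxa2 gave 3 against 5. The counting intervals of both ratios there include 1, as does that of Foxa2 in tumour 3 (0.286 to 1.28).

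**Figure D3:**
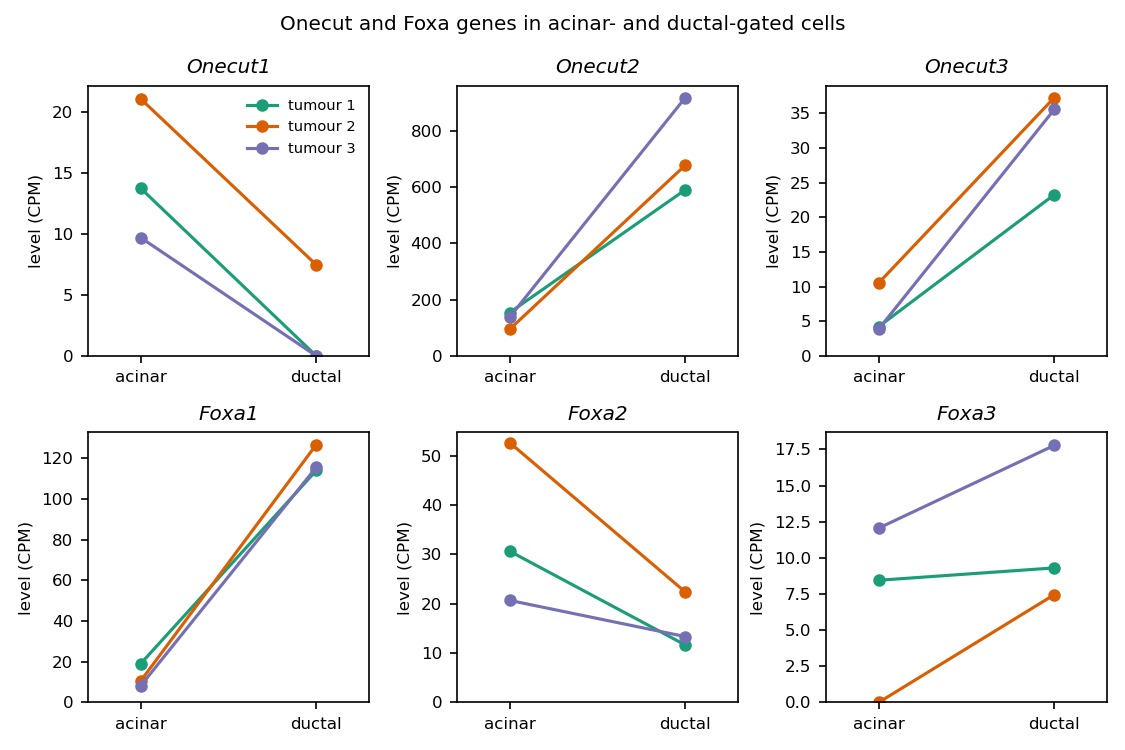
Levels (CPM, linear axes from 0 with their own scales) of the 3 Onecut and the 3 Foxa genes in acinar-gated and ductal-gated cells, with lines joining sums of the same tumour. Onecut1 and Foxa2 are lower in the ductal gate of every tumour, while Onecut2, Onecut3 and Foxa1 are higher.

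Hes1 stands downstream of Notch receptors, and 27 other genes of that pathway were read beside it. Of 15 tested, 2 were higher in ductal-gated cells, 3 were lower and 10 were not called, against 33% of all genes called in either direction, with a median log2 difference of 0.14. The receptor Notch1 was at 6.98, 7.45 and 8.89 CPM in ductal-gated and 54.9, 42.1 and 47.4 CPM in acinar-gated cells (log2 -2.78 ± 0.36, SE, edgeR's adjusted p = 1.87e-08). The ligand Jag2 (log2 -1.93 ± 0.40) and the glycosyltransferase Lfng (log2 -2.85 ± 0.62), which tunes the response of the receptor to its ligands, were the other lower genes. Ncstn, a subunit of the gamma-secretase that releases the receptor's intracellular part, was higher (log2 0.91 ± 0.26), as was the receptor-cleaving protease Adam10 (log2 0.54 ± 0.16). Without the barcodes rich in ribosomal locus RNA 2 were higher (Ncstn and Hes6) and 4 lower, Adam10 was not called, and the median was -0.16, while DESeq2 called 3 lower and 0 higher (1 higher at an unadjusted p below 0.05).

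Genes of mature cell types were set beside the 9 as a check of the gates. Of 15 duct cell genes 12 were tested, 10 were higher in ductal-gated cells, 1 was lower and 1 was not called. The shares over all genes were 17.4% higher and 15.6% lower. Carbonic anhydrase gene Car2 was at 535, 522 and 725 CPM in ductal-gated against 107, 94.7 and 105 CPM in acinar-gated cells (log2 2.46 ± 0.15, SE). Ambp (log2 3.31 ± 0.25), the mucin gene Muc1 (log2 1.79 ± 0.15) and the keratin Krt7 (log2 1.52) were higher as well, while Spp1, the osteopontin gene of normal ducts, was lower (log2 -1.25 ± 0.19). All 5 acinar transcription factors were lower in ductal-gated cells, against 15.6% of all genes. Ptf1a, which specifies acinar cells, stood at 1.16, 0 and 1.48 against 42.2, 52.6 and 70.0 CPM, and its partner Rbpjl at 5.82, 7.45 and 4.45 against 149.99, 84.2 and 145 CPM.

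Squamous-gated cells were numerous enough only in tumour 3, where 49 cells gave 218151 UMIs, so their values have counting intervals but no test and no replicate. The 7 squamous markers other than Krt5 and Krt14, which set the gate, summed to 8787 CPM in them against 94.7 to 665 CPM in acinar and ductal sums, and Trp63, the main transcription factor of squamous epithelium, at 215 CPM from 47 UMIs. Ratios to ductal-gated cells of the same tumour carry counting intervals only. The share of all genes whose interval leaves out 1 was not computed. Sox9 was at 138 CPM from 30 UMIs, 2.26-fold the ductal-gated level of 60.8 CPM (95% counting interval 1.36 to 3.71). Hes1 was at 293 CPM from 64 UMIs, 2.47-fold the ductal-gated level (1.75 to 3.48), though still below the 398 CPM of free RNA. The Notch ligand gene Jag1, not called between ductal-gated and acinar-gated cells, stood at 197 CPM in the squamous-gated cells, against 22.2 and 20.2 CPM in the ductal and acinar gates of tumour 3. Hnf4a was at 4.58 CPM from 1 UMI, 0.0998 times the ductal-gated level (0.00245 to 0.599). Pdx1 was at 13.8 CPM from 3 UMIs, 0.299 times that level (0.0586 to 0.960). The intervals of both end below 1, while that of Foxa2 (1 UMI, 0.344 times, 0.00784 to 2.48) does not. Onecut2, at 633 CPM, and Klf5, at 220.0 CPM, were 0.689 times (0.568 to 0.829) and 0.700 times (0.501 to 0.962) the ductal-gated level, and both stayed above their acinar-gated levels. Onecut1 and Gata6 gave 0 UMIs in the 49 cells.

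**Figure D4:**
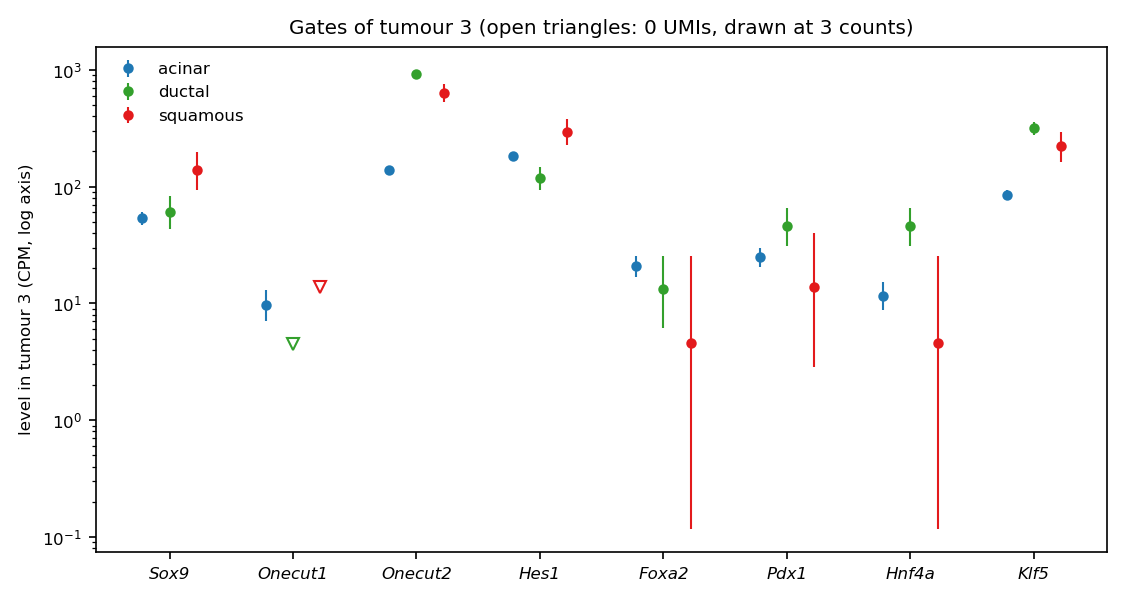
Levels of 8 of the 9 genes (CPM, log axis) in acinar-, ductal- and squamous-gated cells of tumour 3, with bars for exact 95% Poisson intervals; Gata6 is left out, and open triangles stand for 0 UMIs drawn at 3 counts. Sox9 and Hes1 are highest in the 49 squamous-gated cells. Hnf4a, Pdx1 and Foxa2 are drawn lowest there, from 1, 3 and 1 UMIs, and the counting intervals of their ratios to the acinar gate include 1.

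Cells marked by Msln, Tm4sf1 and F3, genes of surface proteins, were too few at 3 per 1000 UMIs (11, 1 and 13 cells). They were therefore taken at 1 per 1000, a threshold set after the data were seen. That gave 46, 7 and 68 cells, and the Msln sums of tumours 1 and 3 entered the test. No cell that passed another gate at 3 per 1000 was counted as Msln-gated, so the ductal gate here held 391 and 197 cells in tumours 1 and 3. The fit held 8 sums, with the acinar and ductal sums of all 3 tumours among them. None of the 7 tested members was called against ductal-gated cells by edgeR's quasi-likelihood test or by DESeq2, where 6.51% of all 6910 genes were called, and 1 member, Hnf4a, had an unadjusted p below 0.05. Onecut2 stood at 532 and 923 CPM in Msln-gated cells of tumours 1 and 3, against 590.3 and 916 CPM in ductal-gated cells (log2 -0.03 ± 0.19, SE). Hnf4a stood at 40.3 and 12.0 CPM against 45.2 and 45.8 CPM (log2 -1.11 ± 0.52, edgeR's adjusted p = 0.257). Without the barcodes rich in ribosomal locus RNA it was called lower (log2 -1.94, adjusted p = 0.0424, with 2.43% of all genes called lower there). That call rests on 1 and 4 UMIs in the Msln sums of tumours 1 and 3 (10.1 and 12.3 CPM), against 5 and 4 UMIs with all barcodes. Sox9 stood at 48.4 and 95.9 CPM against 41.8 and 60.6 CPM (log2 0.38 ± 0.37). Against acinar-gated cells Onecut2 (log2 2.27 ± 0.20, adjusted p = 1.54e-10) and Klf5 (log2 1.57 ± 0.20, adjusted p = 3.59e-07) were higher, with 14.7% of all genes called higher, and none of the 7 tested members was called lower (11.7% of all genes). Foxa2 was called lower by edgeR's test with gates at 2 per 1000 (adjusted p = 0.0497; 0.627 as reported). Onecut1, with 0 UMIs in the Msln sums and not tested as reported, was called lower with no filter on low counts (adjusted p = 0.0494) and with 1500 UMIs per cell (adjusted p = 0.0389), and not with 50 cells per sum (adjusted p = 0.0809).

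Of 9 tested genes of the endoderm and epithelial list 2 were called between the Msln and ductal gates, where 6.51% of all genes were called. Klf6, a Krüppel-like factor induced by injury, was higher in Msln-gated cells (log2 0.74 ± 0.23, SE, edgeR's adjusted p = 0.0481, not called by DESeq2) and Foxa1 lower. Foxa1 stood at 8.06 and 5.99 CPM in Msln-gated cells of tumours 1 and 3, against 114 and 115 CPM in ductal-gated cells (log2 -4.00 ± 0.56, edgeR's adjusted p = 7.12e-06). The acinar-gated levels were 19.0 and 8.18 CPM. A count of 3 UMIs gives 24.2 and 8.99 CPM in these Msln sums, so Foxa1 was read there from fewer than 3 UMIs in each. Of 9 tested Notch pathway genes only Notch1 was called, at 32.3 and 39.0 against 6.96 and 8.87 CPM (log2 2.23 ± 0.54, adjusted p = 0.00828). Of 12 duct cell genes 4 were higher, among them Krt7 (log2 1.48 ± 0.17) and Spp1 (log2 2.08 ± 0.23), and Ambp was lower (log2 -1.52 ± 0.37), while DESeq2 called 3 higher and 0 lower (1 lower at an unadjusted p below 0.05), without Ambp and Slc4a4. Malat1 was at 14231 and 20609.8 CPM in these Msln-gated cells, and its part in these differences was not tested.

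Within the ductal gate the 9 genes were also compared by cell division. Cells in which 7 mitotic genes (Mki67, Top2a, Cenpf, Ube2c, Birc5, Ccnb1 and Cdc20) gave at least 1 of 1000 UMIs, a threshold lowered after the data were seen, numbered 82, 15 and 26 in tumours 1, 2 and 3, against 307, 76 and 170 other ductal-gated cells. The median depth of these cycling cells was 1851.5, 1316 and 2078 UMIs, so few mitotic UMIs were enough for the label. None of the 5 tested members was called by edgeR's quasi-likelihood test or by DESeq2, and none had an unadjusted p below 0.05. Over all 2975 genes tested, 2.62% were called. Sox9 stood at 43.1, 0 and 15.8 CPM in cycling cells against 41.5, 123 and 71.1 CPM in the others (log2 -1.10 ± 0.55, SE, adjusted p = 0.354), from 9, 0 and 2 UMIs. Pdx1 stood at 91.1, 96.5 and 47.4 against 53.8, 44.1 and 45.6 CPM (log2 0.41 ± 0.40, adjusted p = 0.709). Onecut2 stood at 800.4, 675 and 624 against 524, 679 and 987 CPM, with no common direction over the tumours. Klf5 stood at 427, 434 and 308 against 252, 414 and 316 CPM (log2 0.19 ± 0.22, edgeR's adjusted p = 0.752). Its log2 difference ran from -0.17 to 0.49 under the alternatives. At the planned 3 per 1000, cycling cells numbered 13, 2 and 4, and no test was made. Klf5 was there at 616, 422 and 919 CPM, from 44, 1 and 11 UMIs, against 265, 417 and 303 CPM in the others. The lack of calls thus holds for the lower threshold only.

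Cells of no gate, 1001 in all, resembled neither gate in every gene. Onecut2 was at 576, 454 and 771 CPM and Klf5 at 268, 209 and 277 CPM in them, both above the acinar-gated sums of the same tumours. Pdx1, at 60.02, 54.9 and 47.8 CPM, lay within a few CPM of the ductal-gated sums in each tumour. Sox9, at 45.9, 54.9 and 93.2 CPM, was higher than in the ductal gate of tumours 1 and 3 and lower than in that of tumour 2. Hnf4a, at 27.5, 29.3 and 23.0 CPM, lay between the gates in tumours 1 and 3, and Onecut1 gave 0, 1 and 10 UMIs. Foxa2 stood at 22.5, 14.7 and 32.2 CPM, above the acinar-gated sum only in tumour 3. As a group these cells entered no test, but 90 of the 114 cells of the Msln sums tested above were among them.

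The genes most like each member were taken as those with the highest Pearson correlation of log2(CPM + 10) over the 6 acinar and ductal sums, among genes with a mean of 20 CPM or more. For Onecut2 these were Samd9l (r = 0.999), Eps8 (0.998) and Gde1 (0.997). For Klf5 they were Prap1 (0.995), Glrx2 (0.994) and Fhl2 (0.994), and for Pdx1 Lyn (0.993), Sh3bgrl3 (0.989) and Gsta1 (0.989). Hnf4a was most like Mia3 (0.997), Foxa2 most like Mrps18b and Utp14a (both 0.997) and Sox9 most like Zfp871 (0.985). The highest correlation for Hes1 was lower, with Plk2 (0.893), Swt1 (0.864) and Ier5 (0.845). Onecut1 and Gata6, with means below 20 CPM, were left out. The 6 sums come from 3 libraries and 2 gates, so every gene that differs between the gates correlates with every other. The values, also those of Sox9 and Hes1, are the highest of all genes compared over only 6 sums. High values can arise from that choice alone, and they describe the sums only.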

How the data were processed

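The authors deposited raw UMI counts per gene and barcode for 3 libraries, made with Cell Ranger 3.0.2 per the file headers, with mm10 and Seurat 3.1 named in the submitters' processing notes. The deposited tables hold all barcodes, so cells were called here. Cells had 1000 or more UMIs, 500 or more genes, at most 20% mitochondrial UMIs and 60% or more of their barcode's UMIs in 1 library. Doublets called by scrublet (4, 3 and 0 cells, scanpy 1.11.5) were not removed, a number too small to tell how many doublets were present. A cell that passed exactly 1 gate was summed with its tumour where 20 or more such cells existed (10 for cycling cells), which gave acinar and ductal sums from 95008 to 4644747 UMIs in size. All sums of a comparison entered 1 fit in edgeR 4.0.16 (R 4.3.3) with filterByExpr, TMM factors, the tumour as a block and glmQLFTest, with Benjamini-Hochberg adjustment over all genes tested. The ductal and acinar fit had 2 residual degrees of freedom. The 9 gate genes were left out of gene counts, and the scripts were tested on simulated counts. DESeq2 1.42.0 and the other alternatives are in the closing section.

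CPM, computed here, carry exact Poisson 95% intervals, ratios of levels conditional exact binomial intervals and shares of cells exact Clopper-Pearson intervals. These intervals hold counting error alone, and the limit for a count of 0 is 3 counts. In a sum, fewer cells with a transcript and less of it per cell cannot be told apart. Both sums of a tumour are from 1 animal, which pairs the gates. Deviations of its 2 sums from the gate means correlated at 0.077, 0.03 and 0.253 in tumours 1, 2 and 3. The members, lists and gates were chosen with earlier results of these data known. Named genes are the 9 members and up to 4 genes of each list by smallest p among those called. Up to 3 genes most like each member with a mean of 20 CPM or more are also named. Adam10, Spp1, Gata4, Foxa3, Jag1, Malat1 and the remaining called genes of short lists were named after their values were seen.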

Additional observations from a re-analysis of the deposited data

How the results depend on the processing

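Of the members, Onecut2, Klf5 and Hnf4a were higher in ductal-gated than acinar-gated cells, and called, under every alternative that tested them (16, 16 and 14 of 16), and Onecut1 was lower in all 8 that tested it. Foxa2 lost its call with DESeq2, without tumour 3 and without the replicate block, and Pdx1 lost its call with DESeq2 and without tumour 1. The small difference of Hes1 ran from -0.61 to 0.18 when tumours were left out, reversing without tumour 3. The number of genes called between ductal-gated and acinar-gated cells was 2527 as reported, 1035 with DESeq2, 1218 with cells thinned to 1000 UMIs and between 1172 and 2672 when a tumour was left out. Without the replicate block, that is ignoring that a tumour pairs the gates, it was 1503, Msln against ductal gave 281 genes and cycling against other ductal cells 17. Besides Foxa2, the loss of the block took no member's call among those still tested, and Onecut1 was then not tested.

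Msln against ductal called 450 genes, with 198 by DESeq2 (158 higher, 40 lower), 770 without the home library filter, 75 after thinning and 107 to 422 when a tumour was left out. Onecut2, at -0.03 between these gates, changed sign without the block (0.0517), with gates at 2 per 1000 (0.3131), cells of several gates assigned (0.0158), 50 cells per sum (0.1611), no home library filter (0.0012), 1500 UMIs per cell (0.0067) and no barcodes rich in ribosomal locus RNA (0.026). Sox9 was -0.0026 there with gates at 2 per 1000. Msln against acinar called 1825 genes, with 1025 by DESeq2, 1171 with gates at 2 per 1000, 531 after thinning and 496 to 1886 when a tumour was left out.

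Cycling against other ductal cells was the least stable, with 78 genes called, and 19 by DESeq2, 184 without a filter on low counts, 133 and 39 with gates at 2 and 5 per 1000, 266 without the home library filter, 146 with 1500 UMIs per cell, 11 after thinning and 165 without barcodes rich in ribosomal locus RNA. Leaving out a tumour gave 0 to 181 genes, and edgeR's 0 without tumour 3 came with 233 genes at an unadjusted p below 0.05. Onecut2 was 0.3618 there, against -0.16 as reported and -0.6539 without tumour 1. The causes were not tested. Gates at 5 per 1000 for the Msln comparisons and 50 cells per sum for cycling cells left too few cells and were not run. Where leaving out a tumour left 1 sum in a gate, that sum was assumed to vary like the others. Depth limits Gata6, Onecut1, Foxa2, Hnf4a, Sox9 and Pdx1 most, each with under 100 UMIs in the ductal gate.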
